A study of Homo sapiens with 6 samples.

Results

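The genes described here are 41 enzymes and electron carriers of fatty acid oxidation, synthesis and elongation, found among 54644 gene rows by taking each row whose list of gene names held the symbol. By role they comprised 21 oxidation, 6 activation, 5 synthesis, 5 elongation and 4 desaturation genes, and all 41 matched a row. They were measured by RNA sequencing in SKBR3, a human breast adenocarcinoma epithelial line with amplified ERBB2 (HER2). The control group carried the lentiviral pLVX vector and the CTTN group carried pLVX-CTTN, which expresses the actin-binding protein cortactin. Both were stable lines selected with puromycin, and each group held 3 libraries. The comparison asks which transcripts differ when cortactin is overexpressed.

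Cells burn fatty acids by activating them to acyl-CoA, moving them into mitochondria on carnitine, and shortening them in repeated rounds of dehydrogenation, hydration, oxidation and thiolysis. They build them in the cytosol from acetyl-CoA, which acetyl-CoA carboxylase turns into malonyl-CoA and fatty acid synthase joins into palmitate. Elongases then lengthen the chain and desaturases insert double bonds, and HER2-amplified breast cancer lines are known for high fatty acid synthase.

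The control libraries 1 to 3 held 34887079, 41279658 and 37751125 fragments assigned to genes and the CTTN libraries 1 to 3 held 35583128, 36531323 and 35478949. Values given as scaled fragments are fragments divided by the size factor of each library. P-values measure the spread between these libraries, since the sources used here call them biological replicates and do not say that they were separate cultures. CTTN itself, as a check of the labels, had 10912, 11228 and 11265 scaled fragments in control libraries 1 to 3 and 29088, 37144 and 18999 in CTTN libraries 1 to 3. The groups did not overlap, and CTTN library 3 had the smallest excess. The log2 fold change was 1.30 ± 0.22 (SE), with an adjusted p of 0.0279 by limma with Benjamini-Hochberg adjustment. That call was lost without CTTN library 1 (limma adjusted p = 0.152) and without control library 1, 2 or 3 (0.134, 0.149 and 0.138), while the log2 fold change stayed between 1.08 and 1.56. It was also lost with libraries blocked by number (0.0571) and on isoform FPKM summed by gene symbol (0.0708).

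The luminal epithelial identity of the line was visible in every library. KRT19 was the most abundant of 8 identity markers, at a mean of 2167 FPKM (fragments per kilobase of transcript, scaled by library depth), and ERBB2, GRB7, KRT8, KRT18 and EPCAM each had a control mean of 156 FPKM or more. None of the 8 was called by limma or edgeR, and 1 had an unadjusted limma p under 0.05, where 30.6% of all rows tested had. After length adjustment, described below, 3 of the 8 were called: ERBB2 at 0.27 and KRT19 at 0.23 higher, and KRT18 at -0.37 lower (18.4% of all rows were called). In CTTN library 2 alone against the controls KRT8, KRT18 and EPCAM lay at -0.28, -0.48 and -0.27. CDH1 (E-cadherin) and ESR1 (the estrogen receptor) stayed under 1 FPKM in all 6 libraries. Markers of fibroblasts, leukocytes, endothelium, adipocytes and basal cells summed, over 13 genes, to 13.2, 14.3 and 14.2 FPKM in the controls and 11.2, 12.0 and 9.15 FPKM in the CTTN libraries. The most abundant was CD68 at 3.84 FPKM on its own isoforms, and 9 of the 13 were under 1 FPKM in every library. Of 7 tested 1 was called, lower (1.97% of all rows): CDH5 (VE-cadherin), at 561, 614 and 560 scaled fragments in controls against 194, 262 and 162 with CTTN, a fall by 1.51 on the log2 scale (limma adjusted p = 0.00833). The groups did not overlap. Its adjusted p was 0.0753 without CTTN library 1 and 0.0616, 0.0755 and 0.0649 without control library 1, 2 and 3. The log2 fold change of CDH5 stayed between -1.70 and -1.36 with a library left out. The endothelial marker VWF was at -0.65 (95% interval -1.28 to -0.02; limma adjusted p = 0.156), with overlapping groups, and -0.25 after length adjustment, and PECAM1 had at most 6.19 scaled fragments in any library. The part of these markers in the results was not tested, and in bulk RNA fewer cells with a transcript and less of it per cell cannot be told apart.

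Before the genes themselves, a property of the libraries must be given, because CTTN libraries 1 and 3 stand apart in it. In CTTN library 3 the 1441 gene rows with the shortest transcripts (median 686 bases) had a median log2 deviation from the control mean of 0.77, and the 1441 with the longest (median 6374 bases) of -0.77. In CTTN library 1 the same medians were 0.32 and -0.41. In CTTN library 2 they were 0.02 and -0.0014, and in the 3 control libraries they stayed between -0.07 and 0.06. The first principal component carried 66.3% of the variance and placed CTTN libraries 3 and 1 apart from the rest. Oxidation genes had a median transcript length of 1969 bases and synthesis genes 4134 bases, against 2350 bases for all rows tested. Each role is therefore also given after a smooth curve of deviation on log2 length was removed from each library (length-adjusted), a step chosen after seeing the data. The length of a row was the mean of its isoform lengths, weighted by isoform FPKM over these 6 libraries. It is therefore not independent of these data: for FASN it was 5766 bases, where the most abundant isoform had 8390. The cause of the gradient was not tested.

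**Figure D1:**
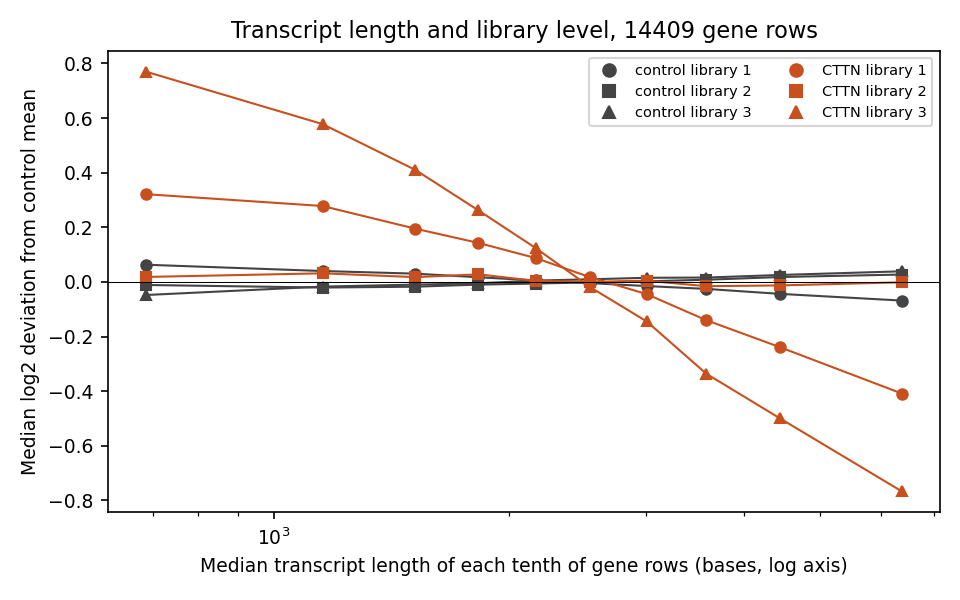
Median log2 deviation from the control mean (vertical axis) of 10 classes of gene rows ordered by transcript length (horizontal axis, bases, log axis). Each line is 1 of 6 libraries: CTTN library 3 runs from 0.77 to -0.77 and CTTN library 1 from 0.32 to -0.41, while CTTN library 2 lies near 0 with the controls.

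By level, the rows spanned from FASN, at a mean of 664 ± 34.2 FPKM (SD, n = 3) in controls, to ACADS, at 0.0612 ± 0.0391 FPKM. Among oxidation genes ETFA (266 ± 4.12 FPKM in controls) and ACADVL (208 ± 21.5) were highest by the mean over all 6 libraries, among activation genes ACSL1 (55.0 ± 1.83) and ACSL3 (48.3 with an SD of 2.595). ACLY (143 ± 3.75) followed FASN in synthesis. ELOVL1 (154 ± 2.72) and ELOVL5 (64.7 ± 3.12) led elongation. SCD (200 ± 6.50) led desaturation, where the row that names FADS2 reached 65.2 ± 1.30 FPKM and is shared with FEN1.

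**Figure D2:**
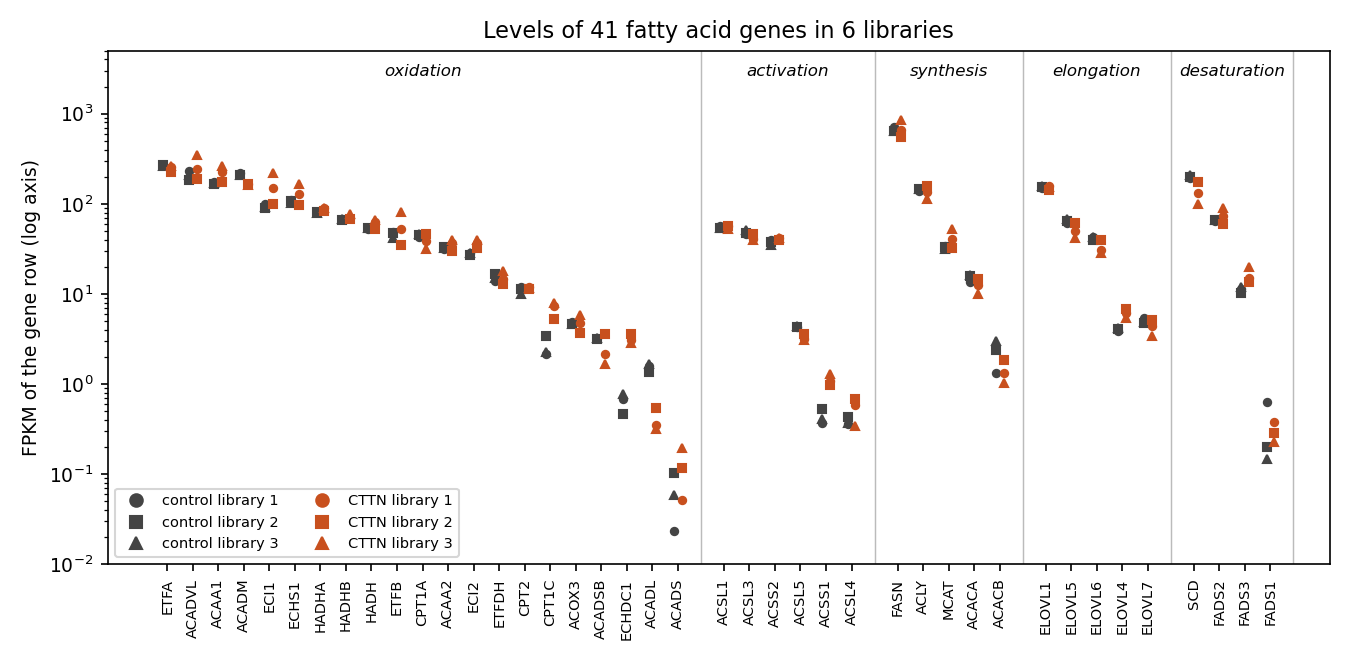
FPKM of the gene row (vertical axis, log axis) for 41 genes ordered by role and mean level; each point is a library, marked by group and number. FASN is the highest row and ACADS the lowest.

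Of the 41 genes, 40 passed the low-count filter, and 6 of them were called at an adjusted p under 0.05 by limma. ECHDC1, CPT1C, ACSS1 and ELOVL4 rose, and ACADL and ACSL5 fell. Over all 14409 rows tested 4.25% were called, 2.28% higher and 1.97% lower with CTTN. The median log2 fold change was 0.02 over the 40 genes and 0.00 over all rows. CTTN libraries lay wholly above the controls for 10 of the 40 and wholly below for 9, where 19.7% and 18.9% of all rows did so. At least 1.5-fold was reached by 5 of the 6 calls, and 3.2% of all rows passed both limits.

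The count of calls rested on which libraries entered. Without control library 1, 2 or 3 and without CTTN library 1, the genes called numbered 1 in each case, ECHDC1, and all rows called numbered 43 (0.298%), 15 (0.104%), 24 (0.167%) and 19 (0.132%). Without CTTN library 2 the genes called were 26 and all rows called 6887 (47.8%), and without CTTN library 3 they were 7 and 1182 (8.2%). Those 26 genes included 20 beyond the 6, among them FASN, ACACA, ACACB, ACLY, MCAT, ELOVL5, SCD and all 3 FADS rows. The FADS2 row counted there is nearly all FEN1. Without CTTN library 3 the addition was ACADM. In each of these 6 fits all 6 called genes kept their sign, which was fixed beforehand because their groups did not overlap. After length adjustment 14 genes were called, 8 higher and 6 lower, where 18.4% of all rows were called, 9.69% higher and 8.76% lower. The 14 included all 6, and added ACADM, ECI1, ETFA, ACSL4, ELOVL5, SCD, FADS1 and FADS3. CTTN library 2 was also set alone against the controls, a comparison chosen after seeing the data. It has no spread within the CTTN group, so its log2 fold changes are given without calls. Counts under an assumed spread are given only with the processing settings below. The sign turned after length adjustment for 8 of the 40 genes (23.8% of all rows). In CTTN library 2 alone it turned for 12 (29.6%). None of these was among the 6, whose sign in CTTN library 2 alone was fixed beforehand because their groups did not overlap.

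Other tests moved the count as well. By edgeR on recovered fragments the same 6 genes were called (4.46% of all rows), and by DESeq2 13 with the 6 among them (14.4%). With limma on log2(FPKM + 1) 3 of the 6 were called (1.28%), on isoform FPKM summed by gene symbol 2 genes (0.608% of 18411 symbols), and with libraries blocked by number 2 of the 6 (0.812%).

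**Figure D3:**
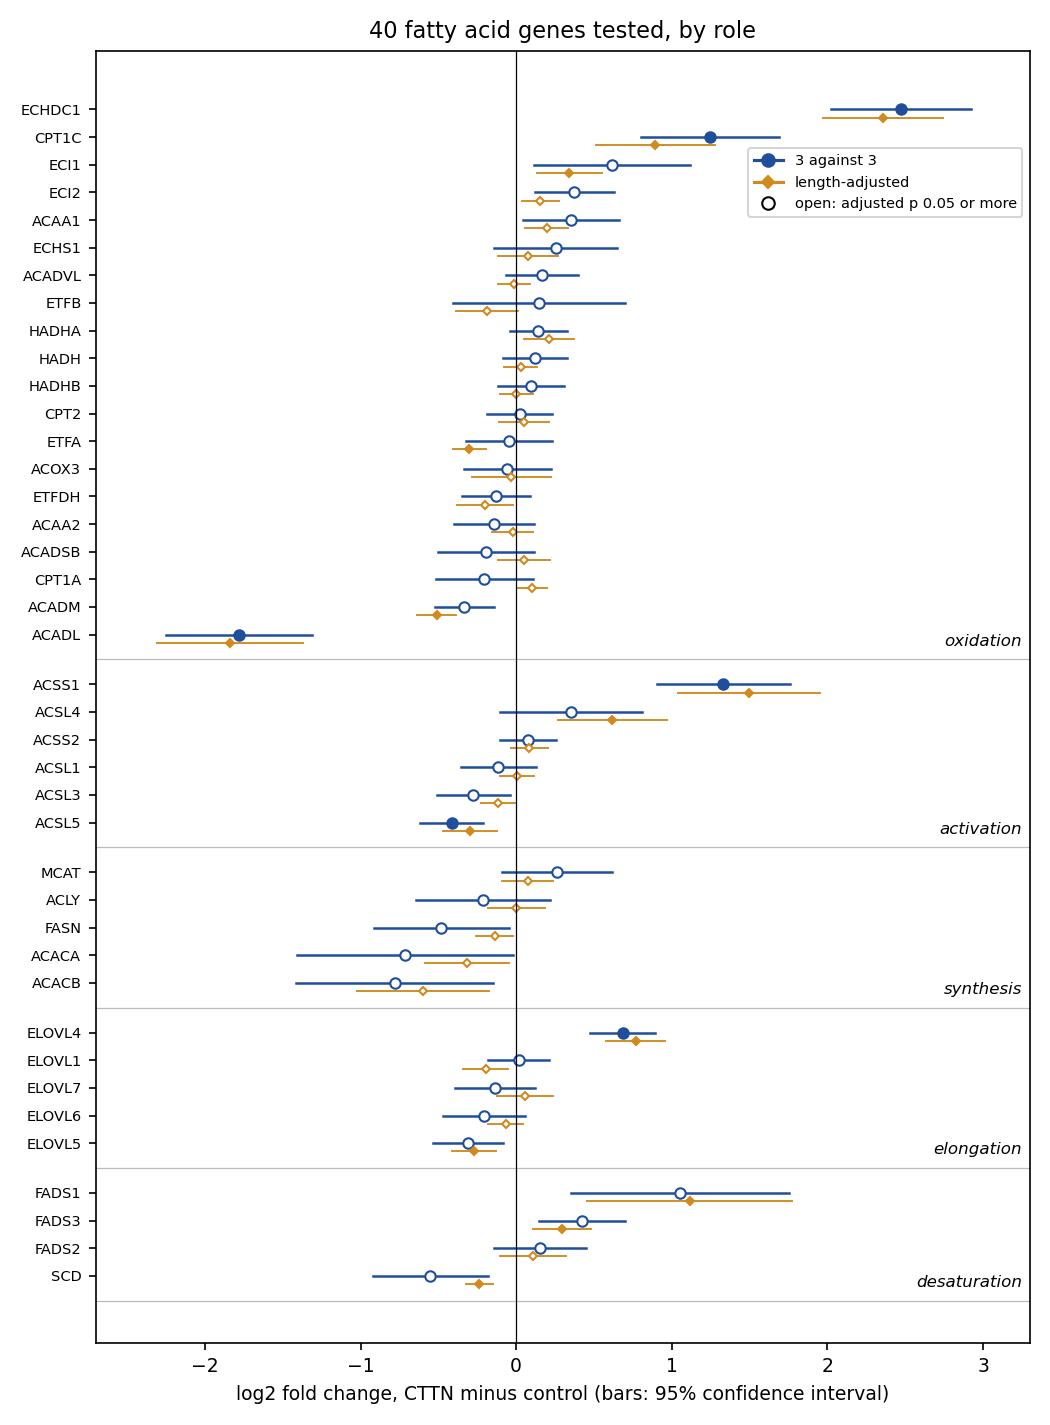
Log2 fold change, CTTN minus control (horizontal axis), with 95% confidence intervals for 40 genes by role, from the 3 against 3 limma fit (blue) and after length adjustment (orange); open marks have an adjusted p of 0.05 or more. ECHDC1 is farthest right at 2.47 and ACADL farthest left at -1.78, and the synthesis genes move toward 0 after adjustment.

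The sequences upstream of the RefSeq start are shown for ECHDC1, ACADL, ELOVL4 and ACSS1, the called genes with the largest log2 fold changes whose most abundant transcript was protein-coding. Each is 250 bases, 5′ to 3′ on the strand of the gene, GRCh38.p14, in lower case. ECHDC1 and ACSS1 each had 2 such upstream sequences, and 1 of each is shown. Capitals mark matches, on either strand, to the Sp1 motif GGGCGG, the E-box CACGTG, the CCAAT box, the sterol regulatory element TCACCCCAC or a PPAR direct repeat.
ECHDC1, chr6:127343610-127343859, minus strand: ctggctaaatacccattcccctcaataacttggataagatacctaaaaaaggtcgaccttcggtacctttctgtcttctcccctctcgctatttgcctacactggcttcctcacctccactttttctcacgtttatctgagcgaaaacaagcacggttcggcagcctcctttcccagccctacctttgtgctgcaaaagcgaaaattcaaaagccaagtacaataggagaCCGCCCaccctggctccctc
ACADL, chr2:210225448-210225697, minus strand: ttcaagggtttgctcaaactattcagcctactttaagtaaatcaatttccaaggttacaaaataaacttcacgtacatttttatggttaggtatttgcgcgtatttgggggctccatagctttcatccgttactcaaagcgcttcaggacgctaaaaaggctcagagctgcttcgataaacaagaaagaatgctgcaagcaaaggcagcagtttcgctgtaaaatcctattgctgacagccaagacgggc
ELOVL4, chr6:79947554-79947803, minus strand: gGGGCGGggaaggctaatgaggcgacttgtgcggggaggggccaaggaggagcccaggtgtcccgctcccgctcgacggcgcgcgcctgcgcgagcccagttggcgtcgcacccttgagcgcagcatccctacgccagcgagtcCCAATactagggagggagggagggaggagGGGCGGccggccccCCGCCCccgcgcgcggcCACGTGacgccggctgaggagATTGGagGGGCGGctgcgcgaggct
ACSS1, chr20:25058140-25058389, minus strand: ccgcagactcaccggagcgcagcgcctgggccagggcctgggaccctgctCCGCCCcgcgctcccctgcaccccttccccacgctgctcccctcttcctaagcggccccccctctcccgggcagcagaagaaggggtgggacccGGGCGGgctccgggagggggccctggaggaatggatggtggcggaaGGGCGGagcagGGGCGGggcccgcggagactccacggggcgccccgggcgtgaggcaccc

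These stretches hold 1 Sp1 match for ECHDC1, none of the 5 motifs for ACADL, 4 Sp1, 2 CCAAT and 1 E-box match for ELOVL4, and 4 Sp1 matches for ACSS1. The E-box of ELOVL4 starts 46 bases before the transcript. Over 300-base windows that also include 50 bases after the start, 38 of the 41 genes had at least 1 of 59 windows. The Sp1 motif was in 71.2% of these windows and in 45.0% of all 35116 windows, CCAAT in 32.2% and 34.6%, and the E-box in 3.39% and 7.26%. The sterol element was in 1 window of ACSL1, against 0.430% of all, and the PPAR repeat in 0 of 59, against 0.0228% of all. A match describes letters in a window and not a bound site, and no match says only that these letters are not there.

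Among the 21 oxidation genes, 20 were tested, 2 were called higher and 1 lower, beside 2.28% and 1.97% of all rows. The median log2 fold change was 0.11, and 0.04 after length adjustment. ECHDC1, which encodes a decarboxylase that removes the faulty carboxylation product ethylmalonyl-CoA, had 40.2, 27.1 and 36.4 scaled fragments in control libraries 1 to 3 and 192, 173 and 219 in CTTN libraries 1 to 3. Every CTTN library was far above every control library. The log2 fold change was 2.47 ± 0.19 (SE; limma adjusted p = 0.00323), and the gene was called in all 6 fits that left out a library (highest adjusted p 0.0426). After length adjustment it was 2.36 (adjusted p = 0.000194). Its row lies on chromosome 6 from 127288710 to 127343609 (GRCh38). Its level stayed low, at 3.15 ± 0.386 FPKM with CTTN. By the mean over all 6 libraries, the most abundant transcript of ECHDC1, protein-coding and 2341 bases long, held 24.3% of its FPKM. That transcript was at 4.45e-05, 1.84e-05 and 2.19e-05 FPKM in controls and 0.189, 0.610 and 1.96 with CTTN. A protein-coding transcript of 2585 bases, with 19.1%, was at 0.479, 0.240 and 6.43e-12 FPKM in controls. With CTTN it was at 0.589, 0.741 and 0.120, so the leading transcript differed between libraries.

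ACADL, the long-chain acyl-CoA dehydrogenase on chromosome 2 (210171518 to 210233976), had 96.0, 105 and 110 scaled fragments in controls and 23.8, 37.1 and 28.8 with CTTN. The groups were apart, and the highest CTTN library was under the lowest control. It fell by 1.78 on the log2 scale (SE 0.20; limma adjusted p = 0.00803), and by 1.84 after length adjustment. The adjusted p was 0.0555 without CTTN library 1 and 0.0561, 0.0723 and 0.0656 without control library 1, 2 and 3. Its log2 fold change stayed between -1.94 and -1.63 with a library left out. Its main isoform, a protein-coding transcript of 2543 bases, held 75.7% of the FPKM of the gene.

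CPT1C, a carnitine palmitoyltransferase paralog best known from neurons, had 56.7, 76.8 and 58.4 scaled fragments in controls and 161, 125 and 174 with CTTN. The groups did not overlap, and CTTN library 2 was the lowest of its group. It rose by 1.25 ± 0.19 on the log2 scale (limma adjusted p = 0.0189) and 0.89 after length adjustment. The adjusted p was 0.122 without CTTN library 1 and 0.103, 0.0723 and 0.114 without control library 1, 2 and 3. Its log2 fold change stayed between 1.15 and 1.39 with a library left out. An annotated retained-intron transcript of 700 bases held 89.2% of its FPKM, at 1.64, 3.06 and 1.95 FPKM in controls and 6.37, 4.80 and 7.47 with CTTN. The full protein-coding transcript of 2783 bases held 2.17% of the FPKM. That transcript was at 0.159, 0.000206 and 0.144 FPKM in controls and 0.0524, 0.0870 and 0.172 with CTTN, overlapping. With limma on log2(FPKM + 1), on isoform FPKM and with libraries blocked by number CPT1C was not called (adjusted p = 0.0501, 0.0700 and 0.0779).

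The abundant oxidation genes were not called. ETFA, a subunit of the flavoprotein that takes electrons from acyl-CoA dehydrogenases, had 11006, 11149 and 10554 scaled fragments in controls and 10838, 8957 and 12116 with CTTN. ACADVL, the very-long-chain dehydrogenase, had 12686, 11370 and 12058 against 13484, 12198 and 14921. The groups overlapped for both, at log2 fold changes of -0.05 and 0.17 (limma adjusted p = 0.794 and 0.262). After length adjustment ETFA lay at -0.30 (adjusted p = 0.00433) and ACADVL at -0.02, so the sign of ACADVL turned. Without CTTN library 2 ACADVL was called at 0.24 (adjusted p = 0.0458), and ETFA lay at 0.07. In CTTN library 2 alone ETFA lay at -0.28 and ACADVL at 0.02. CPT1A, the liver-type enzyme that starts mitochondrial import, was at -0.20 (95% interval -0.51 to 0.11) and was called without CTTN library 2 (-0.33, adjusted p = 0.0208). Its sign turned to 0.10 after length adjustment (adjusted p = 0.122) and to 0.05 in CTTN library 2 alone. CPT2, which completes the import, was at 0.02, and between -0.04 and 0.06 with a library left out.

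ACADM, the medium-chain dehydrogenase, shares its row with RABGGTB, a subunit of a protein prenyltransferase, and 3 small nucleolar RNA genes, so the row count cannot be given to ACADM alone. The row had 10716, 10432 and 9923 scaled fragments in controls and 8351, 7692 and 8635 with CTTN, a log2 fold change of -0.33 that missed the threshold (limma adjusted p = 0.0653). The isoforms of ACADM held 32.7% of the FPKM of the row, at 81.5, 77.8 and 76.5 FPKM in controls and 47.3, 51.1 and 35.5 with CTTN. RABGGTB isoforms were at 139, 131 and 132 FPKM against 120, 116 and 124. Both genes lay lower in every CTTN library, and the ACADM isoforms were farther apart. On isoform FPKM summed by symbol the log2 fold change of ACADM was -0.83 (limma adjusted p = 0.0720). The row was called after length adjustment (-0.51, adjusted p = 0.000857), without CTTN library 2 (-0.29, adjusted p = 0.0147) and without CTTN library 3 (-0.37, adjusted p = 0.0231).

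Other shared rows differed in how much belonged to the fatty acid gene. ACAA2, a mitochondrial thiolase, held 61% of a row shared with the myosin gene MYO5B. The row was at -0.14 (limma adjusted p = 0.373), while the isoforms of ACAA2 were at 19.3, 17.7 and 19.8 FPKM in controls and 22.2, 19.2 and 25.6 with CTTN, overlapping, at 0.23 (limma adjusted p = 0.308). MYO5B isoforms were at 12.1, 15.4 and 11.8 FPKM against 11.8, 10.9 and 12.0. ETFB held 90.5% of its row, which turned from 0.15 to -0.19 after length adjustment and -0.33 in CTTN library 2 alone. ACAA1, ACSL4, ELOVL1 and FADS1 held 100% of theirs, beside small RNA genes or a potassium channel gene without signal. FADS2 held 0.739% of its row, so the row reported the neighbouring DNA repair nuclease gene FEN1.

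**Figure D4:**
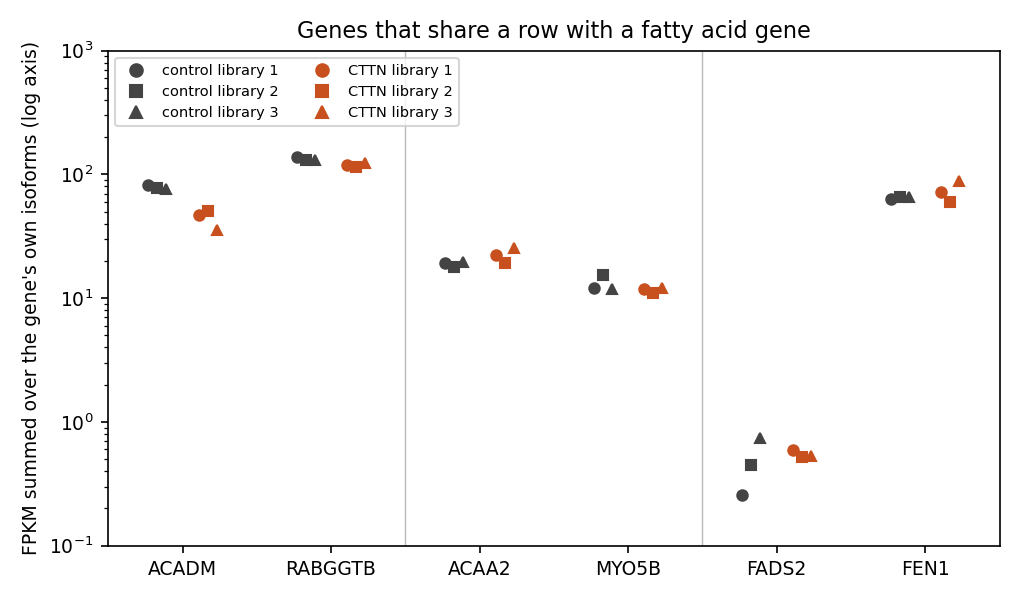
FPKM summed over the isoforms of each gene (vertical axis, log axis) for 3 rows that hold a fatty acid gene and a neighbour; each point is a library. ACADM and RABGGTB both lie lower with CTTN, and FADS2 lies between 0.258 and 0.742 FPKM beside FEN1 between 59.9 and 88.5 FPKM.

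ACADS, the short-chain dehydrogenase, failed the filter, at 1.03, 5.24 and 3.83 scaled fragments in controls and 3.11, 6.84 and 9.97 with CTTN. It was therefore not tested in the 3 against 3 fit. Among the remaining oxidation genes, ECI1, an enoyl-CoA isomerase, was at 0.61 (95% interval 0.11 to 1.12; limma adjusted p = 0.123), and at 0.34 after length adjustment (adjusted p = 0.0355). Its CTTN values of 4788, 3601 and 6843 all lay above the controls at 3310, 3062 and 3240, with the largest in CTTN library 3. Without CTTN library 2 it was called at 0.84 (adjusted p = 0.00323), and in that library alone it lay at 0.17. The trifunctional protein genes HADHA and HADHB lay at 0.14 and 0.09, and neither was called. After length adjustment they lay at 0.21 and 0.00065, and HADHB was at -0.05 in CTTN library 2 alone.

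Of 6 activation genes, 1 was called higher and 1 lower (2.28% and 1.97% of all rows). Their median log2 fold change was -0.02, and 0.05 after length adjustment. ACSS1, the mitochondrial acetyl-CoA synthetase on chromosome 20 (25006230 to 25058980), had 48.5, 72.4 and 58.4 scaled fragments in controls and 146, 138 and 167 with CTTN. The groups were well apart. It rose by 1.33 ± 0.18 on the log2 scale (limma adjusted p = 0.0149), and the length-adjusted p was 0.00239. The adjusted p was 0.0969 without CTTN library 1 and 0.0683, 0.0587 and 0.0926 without control library 1, 2 and 3. Its log2 fold change stayed between 1.19 and 1.48 with a library left out. A protein-coding transcript of 3680 bases held 85.5% of its FPKM. The call of ACSS1 was also lost with libraries blocked by number (0.0550) and on isoform FPKM (0.0942). The cytosolic paralog ACSS2, far higher at 37.3 ± 2.01 FPKM in controls, was at 0.08 and was not called.

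ACSL5, a long-chain acyl-CoA synthetase of mitochondria and endoplasmic reticulum, had 534, 551 and 543 scaled fragments in controls and 393, 428 and 400 with CTTN. All CTTN libraries lay below all controls. It fell by 0.42 on the log2 scale (SE 0.09; limma adjusted p = 0.0470) and by 0.30 after length adjustment. The adjusted p was 0.214 without CTTN library 1 and 0.186, 0.225 and 0.200 without control library 1, 2 and 3. Its log2 fold change stayed between -0.45 and -0.39 with a library left out. ACSL5 was not called either with library totals only (adjusted p = 0.0550), without the low-count filter (0.0806), on log2(FPKM + 0.1), log2(FPKM + 1) or isoform FPKM (0.156, 0.154 and 0.187), or with libraries blocked by number (0.123). The abundant synthetases ACSL1 and ACSL3 were at -0.11 and -0.28 (limma adjusted p = 0.436 and 0.131). ACSL1 had 6855, 6823 and 6696 scaled fragments against 6482, 6947 and 5485, so its groups overlapped, and after length adjustment it was at 0.01. ACSL3 had 5471, 5894 and 6142 against 5028, 5174 and 4288, apart and lowest in CTTN library 3. ACSL3 was called without CTTN library 2, at -0.33 (adjusted p = 0.0214), and lay at -0.11 after length adjustment (adjusted p = 0.141) and -0.17 in CTTN library 2 alone.

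None of the 5 synthesis genes was called by limma, by edgeR, by DESeq2 or after length adjustment, and 3 had an unadjusted limma p under 0.05 (30.6% of all rows). Their median log2 fold change was -0.48, -0.14 after length adjustment and -0.10 on log2(FPKM + 1). FASN, which joins malonyl units into palmitate, had 150157, 146798 and 166166 scaled fragments in controls and 110498, 143455 and 84769 with CTTN. All CTTN values lay below the controls, CTTN library 2 by little and CTTN library 3 by most. The log2 fold change was -0.48 (95% interval -0.92 to -0.05; limma adjusted p = 0.142), and -0.14 (adjusted p = 0.0990) after length adjustment. FASN was called without CTTN library 2, at -0.67 (adjusted p = 0.00418), and lay at -0.10 in that library alone. Per library, the median synthesis gene lay at -0.48, -0.04 and -0.86 in CTTN libraries 1, 2 and 3. The part of the length gradient in this was not tested.

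In FPKM the direction of FASN was not the same. It was at 703, 639 and 650 FPKM in controls and 665, 547 and 853 with CTTN, and the groups overlapped. The FPKM of CTTN library 3 was the highest although its fragments were the fewest. Isoforms under 2000 bases held 31.7%, 21.6% and 17.9% of FASN FPKM in control libraries 1 to 3 and 47.6%, 18.3% and 75.2% in CTTN libraries 1 to 3. FPKM divides by isoform length, so the same fragments count for more when given to short isoforms. The part of this in the FPKM of FASN was not tested.

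ACLY, ACACA and ACACB were also lowest in CTTN library 3 and highest of the CTTN group in library 2. ACLY, which makes cytosolic acetyl-CoA from citrate, had 23806, 24954 and 25911 scaled fragments in controls and 21425, 28054 and 16372 with CTTN, and the groups overlapped. Its log2 fold change was -0.22 (limma adjusted p = 0.415), and 0.00 after length adjustment. It was called without CTTN library 2, at -0.41 (adjusted p = 0.0188), and lay at 0.17 in that library alone. ACACA, the cytosolic acetyl-CoA carboxylase, had 4003, 4605 and 4710 against 2614, 4307 and 1748, at -0.71 (limma adjusted p = 0.157) and -0.32 after length adjustment (adjusted p = 0.0921), and the groups overlapped through CTTN library 2. ACACB, the mitochondrial-membrane form, had 321, 319 and 398 against 191, 302 and 139, without overlap. ACACB was at -0.78 (limma adjusted p = 0.123) and -0.60 after length adjustment (adjusted p = 0.0552). Without CTTN library 2 ACACA was called at -1.05 and ACACB at -1.08 (adjusted p = 0.00268 and 0.00281), and in that library alone they lay at -0.04 and -0.19. MCAT, the mitochondrial malonyl transferase, was the only gene of the 5 above 0 in the 3 against 3 fit, at 0.26, and was called without CTTN library 2 at 0.41 (adjusted p = 0.0163). It lay at 0.07 after length adjustment and -0.03 in CTTN library 2 alone.

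Of 5 elongases, 1 was called, higher (2.28% of all rows). ELOVL4, which makes very-long-chain fatty acids, had 329, 362 and 342 scaled fragments in controls and 565, 543 and 554 with CTTN. The groups were far apart relative to their spread, and the 3 CTTN libraries lay close together. It rose by 0.69 ± 0.09 on the log2 scale (limma adjusted p = 0.0117), 0.77 after length adjustment and 0.66 in CTTN library 2 alone against the controls. The adjusted p was 0.103 without CTTN library 1 and 0.0846, 0.0813 and 0.0899 without control library 1, 2 and 3. In those fits the log2 fold change was 0.67, 0.65, 0.72 and 0.68. ELOVL4 was not called either on log2(FPKM + 0.1), log2(FPKM + 1) or isoform FPKM (adjusted p = 0.0910, 0.0930 and 0.113), or with libraries blocked by number (0.0699). All of its signal came from 1 isoform of 3042 bases, at 3.83, 4.11 and 4.15 FPKM in controls and 6.08, 6.73 and 5.43 with CTTN. The row lies on chromosome 6 from 79914812 to 79947580.

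The abundant elongases did not follow ELOVL4. ELOVL1, which acts on saturated very long chains, had 6639, 6732 and 6699 scaled fragments in controls and 7031, 6201 and 7114 with CTTN, overlapping, at a log2 fold change of 0.02 (limma adjusted p = 0.894), which was -0.20 after length adjustment. ELOVL5, which acts on polyunsaturated chains, had 4940, 5186 and 5248 against 4136, 4583 and 3720. Its groups were apart, at -0.31 (limma adjusted p = 0.102), and it was called after length adjustment at -0.27 (adjusted p = 0.0194) and without CTTN library 2 at -0.39 (adjusted p = 0.00666), and lay at -0.16 in that library alone. ELOVL6, which extends palmitate, was at -0.20 and ELOVL7 at -0.13, neither called with all libraries. ELOVL6 was called without CTTN library 2, at -0.30 (adjusted p = 0.0280), and lay at -0.02 in that library alone. After length adjustment ELOVL6 was at -0.07 and ELOVL7 turned to 0.06. The median over the 5 was -0.13, and -0.07 after length adjustment.

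**Figure D5:**
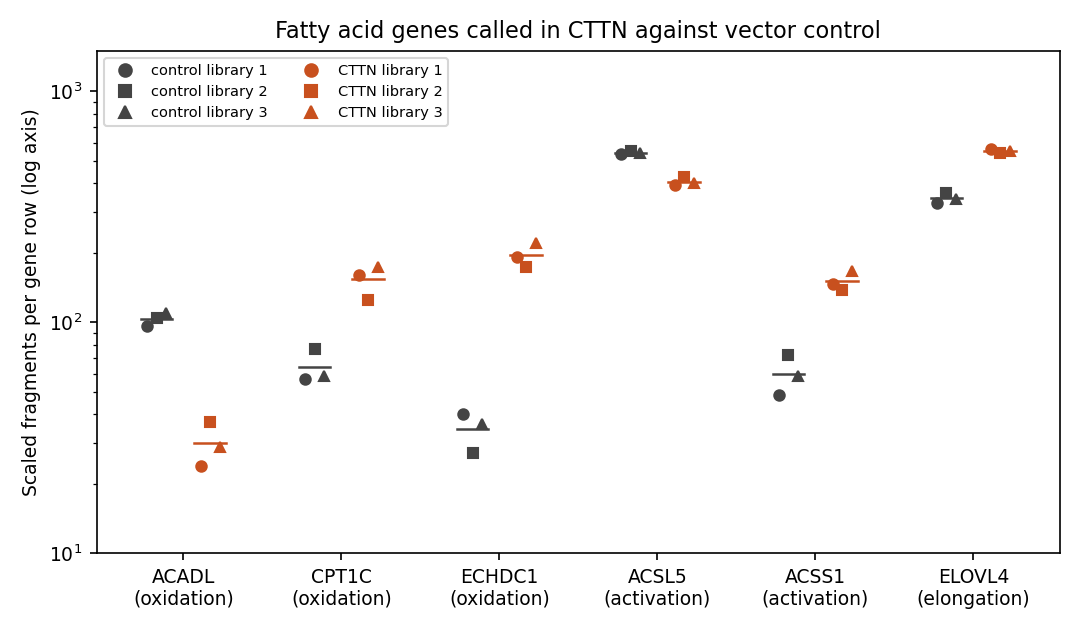
Scaled fragments per gene row (vertical axis, log axis) of the 6 genes called; points are libraries by group and number, bars the group means. ECHDC1, CPT1C, ACSS1 and ELOVL4 lie higher and ACADL and ACSL5 lower in all 3 CTTN libraries.

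None of the 4 desaturase rows was called in the 3 against 3 limma fit, nor by edgeR, and 3 had an unadjusted limma p under 0.05 (30.6% of all rows). DESeq2 called SCD, FADS1 and FADS3 (14.4% of all rows), and after length adjustment FADS1 and FADS3 were called higher (9.69% of all rows) and SCD lower (8.76%). The median log2 fold change of the 4 was 0.29, and 0.20 after length adjustment. It includes the row that names FADS2, nearly all FEN1, which lay at 0.15 and 0.11. SCD, the delta-9 desaturase that makes oleate, had 35146, 36601 and 36827 scaled fragments in controls and 24532, 30997 and 19772 with CTTN. All CTTN libraries lay below the controls, library 3 by most. The log2 fold change of SCD was -0.55 (95% interval -0.92 to -0.18, limma adjusted p = 0.0891). It was -0.24 after length adjustment (limma adjusted p = 0.00480) and -0.72 without CTTN library 2 (0.00225). In CTTN library 2 alone SCD lay at -0.22. Its signal came from 1 isoform of 5362 bases.

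FADS1, the delta-5 desaturase, was near the floor, at 23.7, 27.1 and 13.4 scaled fragments in controls and 48.7, 46.9 and 36.6 with CTTN. The fragments did not overlap, but FPKM did, at 0.626, 0.201 and 0.147 against 0.376, 0.284 and 0.229. Its log2 fold change was 1.05 (limma adjusted p = 0.0883) on fragments and 0.05 on FPKM, and without CTTN library 2 it was called on fragments (adjusted p = 0.0405). FADS3, a sphingoid base desaturase, had 703, 645 and 742 scaled fragments against 856, 876 and 1081, apart, at 0.42 (limma adjusted p = 0.0871), and was called without CTTN library 2 (adjusted p = 0.0140). The FADS2 isoforms were at 0.258, 0.445 and 0.742 FPKM in controls and 0.593, 0.522 and 0.533 with CTTN. Those groups overlapped, and the row itself had 5416, 5499 and 5626 scaled fragments against 6080, 5197 and 7308, nearly all of them from FEN1. That row was called without CTTN library 2, at 0.27 (adjusted p = 0.0386), and lay at -0.09 in that library alone.

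Start-site groups, which split a gene by where its transcripts begin, gave no call. Of 35916 groups tested 0 were called by limma (0%), without edgeR or DESeq2 having been run on them, and 125 of them belonged to 40 of the genes. At an unadjusted p under 0.05, 22 of the 125 passed, and 4076 of all groups (11.3%). Without CTTN library 2, 1 of the 125 was called, and 0.704% of all groups. SCD and ELOVL4 each drew all signal from 1 isoform, so their start-site groups, at -0.55 and 0.69, had to repeat the gene level. Some other genes had groups of both signs, none called. CPT1A had groups at -0.91 and 0.53, and ACSL1 at -0.67 and 0.75.

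Among other genes of the pathway, from lists written by role, 97 of 108 were tested, with a median log2 fold change of 0.06. Of these, 4 were called higher and 3 lower (2.28% and 1.97% of all rows). The 108 include 18 genes of uptake and storage, which hold 2 of the higher calls and are given under Other observations. None was called among 22 further oxidation genes and 9 further elongation and desaturation genes by limma or edgeR. At an unadjusted limma p under 0.05 there were 8 and 3, where 30.6% of all rows passed, and length adjustment called 4 and 0, where it called 18.4% of all rows. Among 13 synthesis partners THRSP, a regulator of lipogenesis, had 228, 209 and 196 scaled fragments in controls and 76.7, 90.9 and 110 with CTTN. It fell by 1.19 on the log2 scale (limma adjusted p = 0.0138). ACSS3, a mitochondrial short-chain acyl-CoA synthetase, had 2076, 2047 and 1974 against 1332, 1322 and 1063 and fell by 0.72 (limma adjusted p = 0.0188). Neither gene overlapped between groups.

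Among 27 regulators tested, 1 was called in each direction (2.28% and 1.97% of all rows). PPARG, a nuclear receptor for fatty acids, had 268, 267 and 277 scaled fragments in controls and 454, 418 and 442 with CTTN. It rose by 0.69 on the log2 scale (limma adjusted p = 0.0124). INSIG1, which retains the sterol-sensing SREBP complex in the endoplasmic reticulum, had 1828, 1770 and 1720 against 1262, 1116 and 1380 and fell by 0.51 (limma adjusted p = 0.0411). SREBF1, the master factor of lipogenesis, was at -0.03, with its groups overlapping. In activation, SLC27A4, a fatty acid transport protein, had 3883, 3894 and 4268 against 5289, 5242 and 5763, a rise of 0.44 (limma adjusted p = 0.0365). The groups did not overlap for PPARG, INSIG1 or SLC27A4. These 5 calls were each lost without CTTN library 1 and without each control library. With a library left out their log2 fold changes were -1.32 to -1.07 (THRSP), -0.78 to -0.61 (ACSS3) and 0.67 to 0.72 (PPARG). INSIG1 lay between -0.58 and -0.43 and SLC27A4 between 0.39 and 0.48. Without CTTN library 1 the adjusted p was 0.0774 for THRSP, 0.0930 for ACSS3, 0.106 for PPARG, 0.189 for INSIG1 and 0.178 for SLC27A4. Without control library 1, 2 and 3 it was 0.0851, 0.0990 and 0.0832 for THRSP and 0.114, 0.125 and 0.112 for ACSS3. It was 0.0851, 0.106 and 0.0856 for PPARG, 0.184, 0.201 and 0.169 for INSIG1, and 0.183, 0.204 and 0.135 for SLC27A4. With libraries blocked by number none of the 5 was called, and in the 3 FPKM fits ACSS3 and SLC27A4 were not. SLC27A4 was not called without the low-count filter either (adjusted p = 0.0544).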

How the data were processed

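RNA was sequenced from 3 pLVX control and 3 pLVX-CTTN SKBR3 libraries, prepared with a stranded poly(A) kit. Per the labels, reads were processed with bcl2fastq 2.20.0, Trimmomatic, STAR and Cufflinks on GRCh38, and gene positions overlapped the GRCh38.p14 genes in 170 of 170 cases. The study methods name other trimming software and an older build. The deposited gene table holds fragments divided by a library size factor, a normalized signal, and the deposited factor of each library is a ratio. Multiplied by it, 100% of values under 200 fragments came out whole within 0.01, and 80.1% to 97.6% of all values above 0. The authors also deposited FPKM for genes and isoforms. Libraries held 34887079 to 41279658 fragments. Counting by strand was not given in the sources used here.

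Because the values were scaled, limma 3.58.1 with trend on log2(scaled fragments + 1) replaced the planned edgeR test, in R 4.3.3. Fold changes are on that scale, which understates the change of low genes. Rows passing the edgeR 4.0.16 filterByExpr filter on recovered fragments, 14409 of 54644, were tested, with Benjamini-Hochberg adjustment and calls at 0.05. On recovered fragments edgeR called 643 rows and 6 members. Length adjustment removed a loess curve (span 0.5). Alternatives included DESeq2 1.42.0, other filters, pseudocounts, FPKM, a replicate block and leaving out each library. The limma step was run on simulated data, where it recovered 66% of genes changed 1.5-fold and 90% of those changed 2-fold. The simulated libraries had no length gradient, so these shares do not describe CTTN libraries 1 and 3. Labels give control columns shifted by 1 name, so the deposited sample table named the control columns and numbered the libraries. Members and lists were chosen with earlier results of these data known. Genes were named by rule: called members, the 2 with highest FPKM per role, ELOVL4, members failing the filter, and up to 3 called genes per list; others (among them ACADM, ECI1, ACSS2, FADS1, FADS3 and ELOVL6) were chosen after their values were seen.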

Additional observations from a re-analysis of the deposited data

How the results depend on the processing

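Leaving out a library gave 15 to 6887 rows called, 15 to 3059 at 1.5-fold or more, 1 to 26 fatty acid genes, 1 to 49 other pathway genes, a median log2 fold change of the fatty acid genes of -0.018 to 0.065, and 0 to 1 of their start-site groups. The highest counts were those without CTTN library 2. Without a low-count filter 395 rows were called. DESeq2 called 2074 rows, 1074 at 1.5-fold, 13 fatty acid genes and 16 other pathway genes. With limma on log2(FPKM + 0.1), 180 rows, 170 at 1.5-fold and 4 other pathway genes were called. With log2(FPKM + 1), 185, 149, 3 fatty acid genes and 4 other pathway genes were called, and the medians moved from 0.29 to 0.077 for desaturation, -0.48 to -0.098 for synthesis, -0.019 to 0.062 for activation and -0.13 to -0.20 for elongation. With log2(FPKM + 0.1) they were 0.11, -0.098, 0.063 and -0.24. FPKM summed by symbol gave 112, 109, 2 and 4. Length adjustment gave 2658, 770, 14 and 19. CTTN library 2 alone against the controls, where that library is assumed to vary like the controls, gave 2002 rows, 11 and 19, and a synthesis median of -0.040. For CTTN library 2 alone, only the spread of the controls was measured. Its counts are therefore not calls, and no conclusion is drawn from them. Without the control column that the labels do not name (control library 1), 43 rows, 43 at 1.5-fold, 1 and 1 were called. With library totals only the median of the fatty acid genes was -0.028. FPKM summed by symbol, length adjustment, CTTN library 2 alone, other pseudocounts and TMM scaling were chosen after seeing the data.

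The replicate block, by the numbers of the sample table, gave 117 rows called, 117 at 1.5-fold, 2 fatty acid genes and 1 other pathway gene, against 612, 461, 6 and 7. Same-numbered libraries correlated at 0.02, 0.07 and -0.18, so the correlations gave no pairing by number.

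Signs turned for genes that were not called in the 3 against 3 fit. ELOVL1 was at -0.031 with library totals only, -0.015 in each of the 3 FPKM fits, -0.20 after length adjustment, -0.11 in CTTN library 2 alone and between -0.019 and 0.080 with a library left out. FASN was at 0.028 in each of the 3 FPKM fits. ACLY was at 0.00028 after length adjustment and 0.17 in CTTN library 2 alone, ACSL1 at 0.0061 and 0.033, ACADVL at -0.015 after length adjustment, and the row that names FADS2, nearly all FEN1, at -0.085 in CTTN library 2 alone. In both fits CPT1A turned from -0.20 to 0.10 and 0.049, ETFB from 0.15 to -0.19 and -0.33, and ACADSB from -0.19 to 0.050 and 0.036. ELOVL7 turned from -0.13 to 0.058 after length adjustment. In CTTN library 2 alone MCAT was at -0.030, HADHB at -0.047, HADH at -0.014, ECHS1 at -0.096 and the row that names ACAA2 at 0.033, from 0.26, 0.095, 0.12, 0.25 and -0.14. With a library left out ETFA ranged from -0.15 to 0.072 and CPT2 from -0.042 to 0.057. ETFB ranged from -0.12 to 0.39 and ACOX3 from -0.13 to 0.046 in the same fits. The causes were not tested.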

Other observations

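Genes of fatty acid uptake and storage were a list among the 108 other pathway genes. Of 18, 15 were tested, 2 were called higher and 0 lower by limma and by edgeR, with a median log2 fold change of 0.22, and 7 lay wholly above the controls and 0 wholly below. Of all rows 2.28% were called higher and 1.97% lower by limma, and 19.7% lay wholly above and 18.9% wholly below. CD36, the membrane fatty acid translocase, had 97.0, 75.9 and 80.5 scaled fragments in controls and 253, 270 and 291 with CTTN. Every CTTN library was above every control. It rose by 1.68 on the log2 scale (limma adjusted p = 0.00408) and was called in all 6 fits that left out a library, at an adjusted p of at most 0.0488. DGAT2, which makes triacylglycerol, had 642, 664 and 650 against 1019, 908 and 1030, a rise of 0.59 (limma adjusted p = 0.0185). Its groups did not overlap. The adjusted p of DGAT2 was 0.133 without CTTN library 1 and 0.115, 0.120 and 0.120 without control library 1, 2 and 3. Its log2 fold change stayed between 0.56 and 0.65 with a library left out. DGAT2 was not called either in the 3 FPKM fits (0.0579, 0.0598 and 0.0720) or with libraries blocked by number (0.0852).

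The 3 against 3 fit and the length-adjusted fit gave different calls for abundant genes. The 6 calls among the fatty acid genes were all low in level, under 10 FPKM. Of them 5 were lost when CTTN library 1 or any control library was left out. With a library left out, log2 fold changes were -1.94 to -1.63 (ACADL), 1.15 to 1.39 (CPT1C) and 1.19 to 1.48 (ACSS1). ELOVL4 lay between 0.65 and 0.72 and ACSL5 between -0.45 and -0.39, so the sizes changed little. Enzyme activity, lipid levels and protein were not analysed here.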
